A study of Homo sapiens with 5 samples.

Results

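Peaks whose summit fell in the 3′ untranslated region (3′ UTR) of an mRNA were taken from the 2 deposited peak lists of an RNA pull-down with the long noncoding RNA SNHG5. A peak was a member when its summit lay in a 3′ UTR of a basic transcript of the GENCODE annotation on GRCh37 and in no coding sequence (CDS). There were 901 such peaks among 9531, namely 126 of 905 in the Odd list (13.9%, 95% Wilson interval 11.8 to 16.3) and 775 of 8626 in the Even list (8.98%, 8.40 to 9.61). The cells were HCT116, a human colorectal carcinoma line. They were fixed in 1% glutaraldehyde, and SNHG5 was pulled down with a pool of biotinylated DNA oligonucleotides named ODD or with another named EVEN. The 5 libraries were 2 ODD, 1 EVEN and 2 control libraries, which the labels call INPUT and the methods describe as a luciferase pool.

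The Odd list was called on both ODD libraries pooled and filtered for reproducibility, whereas the Even list came from 1 library without such a filter. After duplicates were limited, the file headers count 4904959 Odd tags, 1965614 Even tags and 3986040 tags of the control. No value has a replicate error, and all intervals cover counting error only. For a comparison at equal length, the Even list was also cut to its 905 peaks of smallest p, called best Even here. They held 91 3′ UTR peaks (10.1%, 8.26 to 12.2). In the same lists 289 Odd and 261 best Even summits lay in CDS. The lists carry no strand, so a peak was given the strand of its gene, and 7 Odd and 3 best Even 3′ UTR summits lay under exons of both strands.

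The 3′ UTR follows the stop codon and carries many of the elements that set the stability, translation and localization of an mRNA. STAU1 is a double-stranded RNA-binding protein that recognizes duplexes in 3′ UTRs and recruits the decay helicase UPF1. Such a duplex can form within one 3′ UTR, as between Alu repeats in opposite orientation, or between a 3′ UTR and a long noncoding RNA. The study asked which mRNAs are retrieved with SNHG5, a cytoplasmic transcript, and studied the protection of such mRNAs from STAU1. RIA-seq reports RNA recovered with the bait after fixation, whether or not the pairing is direct.

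The sequences that the results turn on are 3′ UTR stretches identical to SNHG5. An exact run of the same letters on the sense strand is a site that an oligonucleotide against SNHG5 could also pair with, whereas a run complementary to SNHG5 could pair with SNHG5 itself. Shown first is the part of exon 5 of SNHG5 that recurred most often in the Odd 3′ UTR peaks, with the bases covered in at least 10% of the Odd windows in capitals. It comes from chr6:86387166-86387195, minus strand, and is followed by the 8 3′ UTR peaks of both lists that hold bases 299 to 306 of SNHG5, counted from 1 at the 5′ end of its 451-nt transcript. In each 3′ UTR sequence the capitals mark the whole run identical to SNHG5 around those bases. All sequences are 30 bases of GRCh37, written 5′ to 3′ on the strand of the gene.
SNHG5: gcccattgaTAGAGGCCAGAttgtcttgga
SOCS6: aaatatgatgGAGGCCAGAagctattttta
DELE1: tcccaaagaAGAGGCCAGATacccacccac
IRX4: cggagcagaAGAGGCCAGATaccctgaagc
PECR: ttgtaaaggTAGAGGCCAGAcgcagtggct
NDUFS1: tgtggaaatgGAGGCCAGAaagaataagag
GLE1: tttaatagttGAGGCCAGATacttacatgc
HOMEZ: gtactatacAGAGGCCAGATgttggcacca
SEPSECS: catctagagGATAGAGGCCAGggtgctact

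These 8 stretches lie at chr18:67996303-67996332 in SOCS6, chr5:141319182-141319211 in DELE1 and chr5:1877806-1877835 in IRX4. Those of PECR and NDUFS1 are at chr2:216903631-216903660 and chr2:206982526-206982555, that of GLE1 at chr9:131303897-131303926, that of HOMEZ at chr14:23744438-23744467 and that of SEPSECS at chr4:25124936-25124965. All are in 3′ UTRs, on the plus strand in SOCS6, DELE1 and GLE1 and on the minus strand in the others. The runs had 9 to 12 bases, and their middle lay between 99 bases on the 5′ side of the Odd summit, in SOCS6, and 50.5 bases on the 3′ side, in SEPSECS. In the other 4 peaks of both lists, the longest run had 8 or 9 bases and lay elsewhere on SNHG5.

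Other parts of SNHG5 recurred in 3′ UTR peaks of 1 list. For exon 2, the SNHG5 sequence from chr6:86387867-86387896 is given with the longest Odd runs there, of 14 bases in ZBTB25 and TNPO1, and with 1 of the 3 runs of 13 bases, in RYBP. These runs lie at chr14:64952387-64952416, chr5:72211821-72211850 and chr3:72424690-72424719, on the minus strand except in TNPO1.
SNHG5, exon 2: gctgtcttcaGTGGCACAGtggagcagctc
ZBTB25: agtaatttTTCAGTGGCACAGTtttcactt
TNPO1: gtctcccaGTCTTCAGTGGCACgatatctg
RYBP: acttggtaTTCAGTGGCACAGaaagcaggt

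For best Even, the recurring parts were at the border of exons 1 and 2 and in exon 4 of SNHG5. The SNHG5 sequence at the border is that of the spliced transcript, from 38 to 67, and so joins bases on either side of an intron. At the border 4 peaks had runs of 12 bases, the longest there, and those shown are in TLCD4 at chr1:95661294-95661323 and TEAD1 at chr11:12960377-12960406, both on the plus strand. In exon 4 (SNHG5 at chr6:86387562-86387591) the recurring place was at positions 201 to 207. The longest run over that place, of 13 bases, was in VPS11 at chr11:118952570-118952599, plus strand. NPLOC4 at chr17:79525498-79525527, minus strand, is 1 of 3 peaks with 12 bases there.
SNHG5, exons 1 and 2: cgtctgggcGGGTGGTAGGAacaatggcgc
TLCD4: gtgaggtgtGTAGGAACAATGaaaagctag
TEAD1: tttttgtaaGTGGTAGGAACAtgtgcacac
SNHG5, exon 4: aacagcgttctGAGTGTGGacgagtagcca
VPS11: cagcaaccTCTGAGTGTGGACaatagctgc
NPLOC4: ccagggtgaTGAGTGTGGACGggggcacca

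Of the 126 Odd 3′ UTR peaks, 12 were overlapped by at least 1 bp by a best Even peak (9.52%, 5.53 to 15.9). Over all Odd peaks 13.1% were overlapped in this way, a share inside that interval. With the whole Even list, 38 of the 126 were overlapped (30.2%, 22.8 to 38.7), against 39.8% of all Odd peaks. From the Even side, 13 of the 91 best Even 3′ UTR peaks were overlapped by an Odd peak (14.3%, 8.54 to 22.9), against 13.3% of all best Even peaks, and in the whole Even list 37 of 775 were (4.77%), against 4.32% of all Even peaks. With lists of equal length, the shares of 3′ UTR peaks found with both pools thus lay near those of all peaks, while with the whole Even list the interval of the Odd share lay below that of all Odd peaks. Odd CDS peaks were overlapped in 10% of cases by best Even and in 31.1% by the whole Even list, so the lower share was not particular to 3′ UTR peaks. The difference was not tested.

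The 12 peaks found with both pools were in SOCS6, TRIB3, DELE1, IRX4, ERVK3-1, PECR, NDUFS1, DNAJC21, ZNF445, GLE1, HOMEZ and SEPSECS. Summits of the Odd and Even peak lay 1 to 135 bp apart, with a median of 13 bp, and within 20 bp in 10 of 12. The fold enrichment, the ratio of the pileup at the summit to the local control level, was lower with Even than with Odd in all 12. The number of tags and of libraries also differed between the pools.

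**Figure D1:**
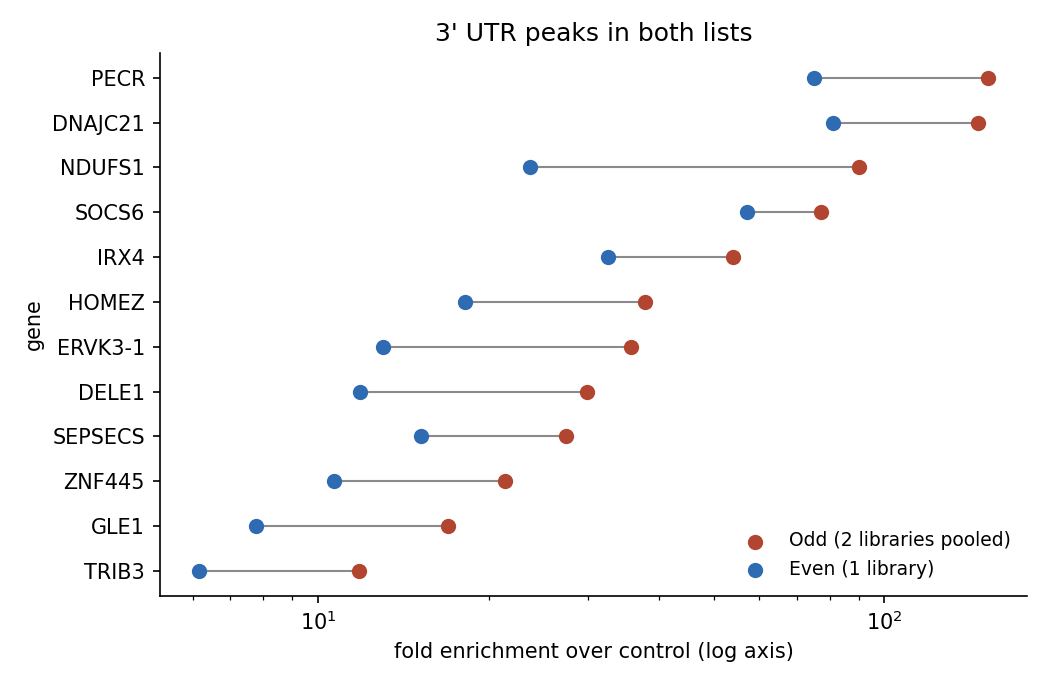
Fold enrichment over the control (horizontal log axis) of the 12 3′ UTR peaks that were found with Odd and with best Even. Each line joins the Odd value (red, 2 libraries pooled) and the Even value (blue, 1 library) of 1 gene, and PECR and DNAJC21 were highest and TRIB3 lowest with both pools.

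SOCS6, a suppressor of cytokine signalling, had the highest rank of the 12 in both lists, at rank 3 by p in Odd. Its pileup was 570 with Odd and 342 with Even, and its fold enrichment was 77.2 and 57.1. The summit lay 2904 nt after the stop codon and 1019 nt before the end of a 3923-nt 3′ UTR. PECR, a peroxisomal reductase of fatty acid chain elongation, had the largest fold enrichment of all Odd 3′ UTR peaks, 152.4, and 75.2 with Even, at pileups of 195 and 87. DNAJC21, a co-chaperone of ribosome assembly, had a pileup of 187 with Odd and 117 with Even, and a fold enrichment of 146.1 and 81.1. These 2 genes thus combined moderate pileups with a low local control level. DNAJC21 held no run of 9 bases or more shared with SNHG5 within 250 bases of the summit, since its longest was 8 bases.

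NDUFS1, a core subunit of respiratory complex I, had the largest ratio of Odd to Even fold enrichment among the 12, with values of 90.2 and 23.6 and pileups of 222 and 48. Its summits were also the farthest apart, 135 bp, in a 9368-nt 3′ UTR. IRX4, a homeobox transcription factor, had fold enrichments of 54.0 and 32.5 at pileups of 266 and 129, in the middle of a 3′ UTR of only 556 nt. DELE1, which relays mitochondrial stress to the integrated stress response, had fold enrichments of 29.8 and 11.8 at pileups of 330 and 141. HOMEZ, which encodes homeobox and leucine zipper domains, had 37.8 and 18.2 at pileups of 133 and 52. SEPSECS, the enzyme that completes selenocysteine on its tRNA, had 27.4 and 15.2 at pileups of 101 and 60. The order of these 5 genes by fold enrichment differed between the pools, since NDUFS1 was above IRX4 and DELE1 above SEPSECS with Odd and below them with Even.

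GLE1, an mRNA export factor that the study followed, had a fold enrichment of 17.0 with Odd and 7.77 with Even, at pileups of 201 and 81. The GLE1 summit lay 526 nt into an 1118-nt 3′ UTR, and its Even peak was only just inside the limit of 905, at rank 901. TRIB3, a stress-induced pseudokinase, had the highest pileup of the 12 with Odd, 742, and a pileup of 338 with Even, below that of SOCS6. It had the lowest fold enrichments of the 12, 11.8 and 6.16. Its control level was thus high, and its summit lay 155 nt before the transcript end. ZNF445, a zinc finger regulator of imprinting, had 21.3 and 10.7 at pileups of 210 and 85, with the summits 1 bp apart. The ERVK3-1 peak (35.6 and 13.04, at pileups of 307 and 91) lay under exons of both strands and of 2 genes, so its source transcript is uncertain.

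WASHC3, a subunit of the WASH actin regulator, was the other best Even 3′ UTR peak with an Odd partner. Its Even summit lay 6 nt into the 3′ UTR, with a fold enrichment of 18.3, whereas the Odd summit, 28 bp away, lay in CDS with 42.3. Of the other genes that the study followed, SPATS2 and PITRM1 had no summit in a 3′ UTR in either list. The SPATS2 peak over the last exon reached into the 3′ UTR, but its summit lay 66 coding bases before the end of the CDS with Odd and 116 with Even. ZNF335, CPNE1 and COX15 had peaks with summits in CDS only, and GAPDH had no peak.

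**Figure D2:**
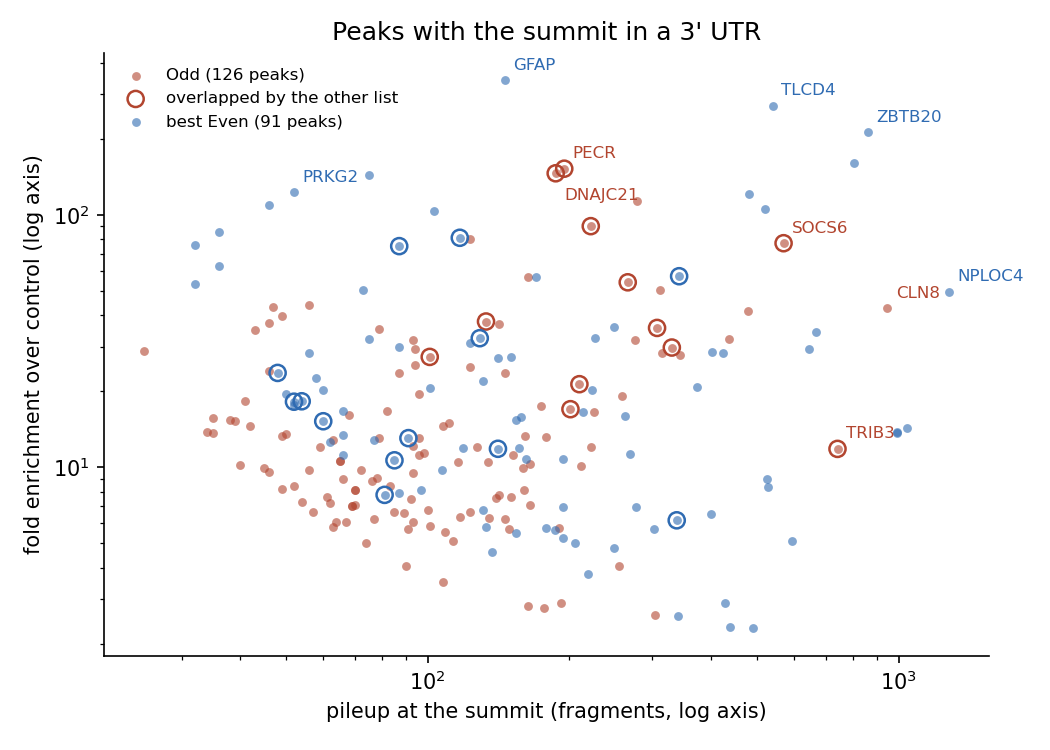
Pileup at the summit (horizontal log axis, fragments) and fold enrichment over the control (vertical log axis) of the 126 Odd and 91 best Even 3′ UTR peaks, with peaks overlapped by the other list circled. The points of both lists mixed over most of the range, and the best Even peaks reached higher in pileup and in fold, to 1281 in NPLOC4 and 341.04 in GFAP. The GFAP summit lay under exons of both strands and of 3 genes, so its source transcript is uncertain.

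The Odd 3′ UTR peaks had a median pileup of 96 (quartiles 65.3 and 163) and a median fold enrichment of 11.6 (7.23 and 23.9). The best Even 3′ UTR peaks had medians of 154 (79 and 339) and 16.5 (8.25 and 32.5). CDS peaks had similar fold enrichments, 11.7 in Odd and 15.1 in best Even, while the median over all peaks was higher, 22.8 and 28.3. Peaks in 3′ UTRs and CDS thus lay below the median of their lists in fold enrichment and, with medians of 73 and 117 over all peaks, above it in pileup. Even 3′ UTR peaks beyond the best had a median pileup of 20 and fold enrichment of 5.07.

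Among the strongest Odd 3′ UTR peaks by p, CLN8, a membrane protein of the endoplasmic reticulum, came first with a pileup of 947 and a fold enrichment of 42.8. It overlapped no Even peak, and 56.2% of the 48-base words around its summit also occurred elsewhere in the genome. RYBP, a Polycomb component (479 and 41.6), RBM23, an RNA-binding protein (437 and 32.3), and IL13RA1, a subunit of the interleukin 13 receptor (344 and 28.0), were found with Odd alone. CDC5L, a splicing factor (278 and 113.0), had its nearest Even 3′ UTR peak 1650 bp away. ZNF445 was the only gene with 2 Odd 3′ UTR peaks, and the stronger (311 and 50.6), 4977 bp from the shared one, had no Even partner.

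The strongest best Even 3′ UTR peaks were different ones. ZBTB20, a BTB and zinc finger repressor, had a pileup of 861 and a fold enrichment of 212.3. Other peaks near the top were in NPLOC4, a cofactor of the segregase VCP (1281 and 49.7), C19orf47 (803 and 160.6), TLCD4 (541 and 270.7) and RIPK1, a kinase of cell death signalling (482 and 120.7). None of these 5 peaks overlapped an Odd peak. NOMO2, NOMO1 and NOMO3, near-identical genes, each had a summit 87 nt after the stop codon with fold enrichments of 14.3, 13.8 and 13.6, and since 78.9% to 100% of their words are copied they cannot be counted as 3 separate findings. TEAD1, a Hippo pathway transcription factor (667 and 34.3), also had an Odd 3′ UTR peak (91 and 5.69), which overlapped no Even peak.

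The Even list held several genes with many 3′ UTR peaks. ZBTB20 had 16, spread over 22908 bp of a 24505-nt 3′ UTR. The first, 932 nt after the stop codon, was the one named above, and the other 15 had fold enrichments of 2.58 to 6.42. UBXN7 had 4, and ABR, MBTD1, NUCKS1, RPS6KA5 and TEAD1 had 3 each. Except in RPS6KA5, where the range was 8.74 to 13.99, each of these genes had 1 best Even peak and weaker ones beside it. In all, 125 genes had an Odd and 704 an Even 3′ UTR peak, and 45 genes had both, 36.0% of the former and 6.39% of the latter. In 8 of the 45 no peaks overlapped, and in KRR1 the Odd 3′ UTR peak overlapped only an Even peak with its summit in CDS. Nearest summits were 505 bp apart in VEZF1, 1408 bp in HNRNPA3 and 64076 bp in ZNF451.

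The 3′ UTRs with peaks were longer than the median 3′ UTR. Their median length was 3453 nt for Odd (95% interval of the median 2652 to 3875) and 2372 nt for best Even (1866 to 3124), against 1068 nt over 19078 canonical 3′ UTRs. A longer 3′ UTR offers more bases to a peak. By bases rather than by genes, the middle base of all canonical 3′ UTR sequence lay in a 3′ UTR of 3263 nt, inside the Odd interval and above the best Even interval. The 3′ UTR was in 1 exon for 124 of 126 Odd and 85 of 91 best Even peaks.

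Summits lay a median of 1126 nt (891 to 1495) after the stop codon and 1387 nt (1089 to 1793) before the transcript end in Odd. For best Even these distances were 726 nt (437 to 932) and 1008 nt (763 to 1675). As a share of the 3′ UTR, the median summit was at 46.8% of the length in Odd (37.1 to 51.8) and at 32.5% in best Even (25.6 to 49.3), and the intervals overlapped. With each 3′ UTR cut into 3 equal parts, the first part held 49 Odd summits (38.9%, 30.8 to 47.6), the middle 45 and the last 32 (25.4%, 18.6 to 33.6). In best Even these were 46 (50.5%, 40.5 to 60.6), 27 and 18 (19.8%, 12.9 to 29.1). In both lists the last part thus held fewest summits, and no summit lay within 100 nt of the transcript end. In the whole Even list 10 of 775 did. Close to the stop codon, 14 Odd and 17 best Even summits lay within 100 nt, and 25 Odd and 37 best Even peaks (40.7%, 31.1 to 50.9) also reached into CDS.

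Within 250 bases of the summit, 70 of 126 Odd 3′ UTR peaks held a run of at least 10 bases identical to SNHG5 (55.6%, 46.8 to 63.9), and 61 of 91 best Even peaks did (67.0%, 56.9 to 75.8). Windows of the same length tiled over all canonical 3′ UTRs held one in 23.2% of 58600 cases. Windows of the members' own 3′ UTRs outside every peak were at 23.5% (20.3 to 26.96) for Odd and 21.3% (17.0 to 26.4) for best Even. They were tiles of 501 bases, so short 3′ UTRs gave none and long ones could give many. Even 3′ UTR peaks beyond the best were at 34.9% (31.5 to 38.6), and CDS peaks at 47.8% in Odd and 40.2% in best Even. The shares in the peaks of both lists thus lay above those in the rest of the same 3′ UTRs, and within the Even list the share was higher in the best peaks than in the others.

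Runs complementary to SNHG5 were less frequent. They were found in 44 Odd (34.9%, 27.2 to 43.6) and 21 best Even 3′ UTR peaks (23.1%, 15.6 to 32.7), against 24.2% of all tiled windows and 24.1% and 29.7% of the windows outside peaks. For runs of at least 12 bases the shares were 18.3% (Odd) and 24.2% (best Even) for identical letters, against 1.82% of tiled windows, and 3.97% (1.71 to 8.95) and 5.49% (2.37 to 12.2) for complementary ones, against 1.95%. For complementary runs the interval thus lay above the share of all 3′ UTR windows in Odd at 10 bases and in best Even at 12. The other intervals at 10 and 12 bases held it, and the shares at 12 bases came from few peaks. At 11 bases the shares were 13.5% in Odd (8.60 to 20.5) and 9.89% in best Even (5.29 to 17.7). All tiled windows were at 7.12%, below the Odd interval and inside that of best Even. Even 3′ UTR peaks beyond the best were above the tiled windows at 11 bases (10.5%, 8.44 to 13.1) and at 12 (3.51%, 2.37 to 5.17). Odd CDS peaks were above the share of all 3′ UTR windows at 10 bases (32.5%, 27.4 to 38.1), 11 bases (11.8%, 8.54 to 15.99) and 12 bases (4.50%, 2.65 to 7.54). Their windows were genomic and could include intron, and CDS windows outside peaks were not measured, so this baseline is of another sequence class.

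The runs lay near the summits. The middle of the longest identical run was a median of 62 bases from the summit in Odd and 65.5 in best Even, against 115.8 and 110.5 from the window centre outside peaks. It was within 100 bases in 60 of 70 Odd and 45 of 61 best Even peaks. On the 5′ side of the summit lay 45 of the 70 Odd runs (64.3%, 52.6 to 74.5) and 34 of the 61 best Even runs (55.7%, 43.3 to 67.5). The longest Odd runs had 14 bases, in ZNF445, FOXP4, ZBTB25, CERS6, STXBP4 and TNPO1, and the longest best Even run had 15, in PRKG2, a cGMP-dependent kinase.

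The runs were concentrated on few parts of SNHG5, and these differed between the pools. In Odd, 27 of 126 windows (21.4%, 15.2 to 29.4) covered positions 300 to 303, in exon 5, and 19 (15.1%, 9.87 to 22.4) covered 78 to 80, in exon 2. In best Even, 17 of 91 (18.7%, 12.004 to 27.9) covered 52 to 53 and 11 (12.1%, 6.89 to 20.4) covered 201 to 207. At the Odd place in exon 2 there were 0 best Even windows, and at 52 to 53 there were 0 Odd windows. Best Even had 8 windows (8.79%) at 300 and 7 (7.69%) at each position from 301 to 303. Tiled windows of all 3′ UTRs covered these places in 0.333% to 1.54% of cases. The place in exon 5 was thus the one covered with both pools, and it is the one shown for 8 of the 12 peaks found with both. The 7 best Even windows at 301 to 303 were in IRX4, PECR, DELE1, SEPSECS, HOMEZ, GLE1 and WASHC3. All of these peaks overlapped an Odd peak, so they do not count as sites independent of Odd.

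Of 20 oligonucleotides against SNHG5 that the study lists, 14 matched the transcript exactly as listed, and single oligonucleotides were not assigned to a pool here. One of them was antisense to positions 299 to 317, another to 67 to 86 and another to 192 to 211, which contain 3 of the 4 recurring places. The other 6 did not match exactly as listed and were not placed here. Among these, the second on the list differed only by an added C from the antisense of SNHG5 bases that include 52 to 53. Whether the peaks arose from pairing of these oligonucleotides with the 3′ UTRs was not tested.

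**Figure D3:**
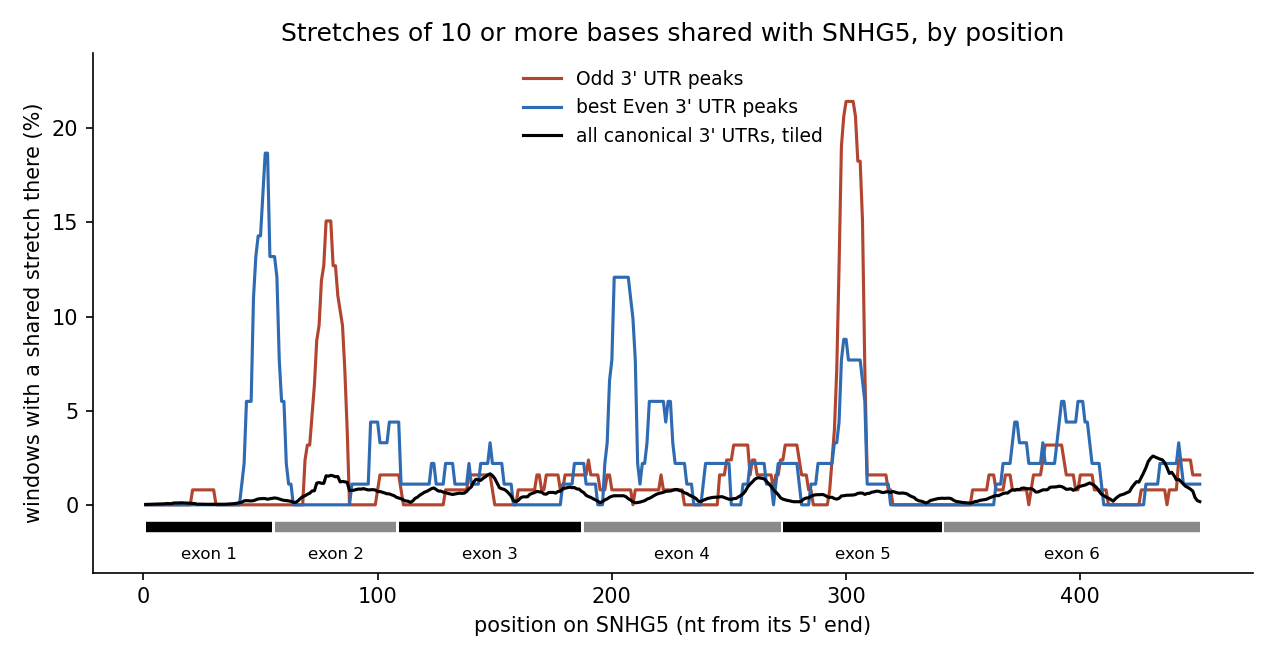
Share of windows around 3′ UTR summits (vertical axis, %) that hold a run of at least 10 bases identical to SNHG5, by the position of the run on the SNHG5 transcript (horizontal axis, nt from the 5′ end), with the 6 exons drawn below. Odd (red) rose near positions 79 and 302, best Even (blue) near 52, 204 and 300, and all canonical 3′ UTRs (black) stayed low throughout.

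The stretch of 9 SNHG5 bases found in most Odd 3′ UTR windows was searched for after the matches were seen, and there was a tie, with AGAGGCCAG (298 to 306) and GAGGCCAGA (299 to 307) in 22 of 126 windows each. The 8 bases that they have in common, GAGGCCAG, occurred in 32 Odd windows (25.4%, 18.6 to 33.6), 11 of 91 best Even windows (12.1%, 6.89 to 20.4) and 26 of 684 windows of the other Even 3′ UTR peaks (3.80%, 2.61 to 5.51). All tiled 3′ UTR windows held them in 2.38% of cases, and their reverse complement in 2.57%. The reverse complement was found in 2 Odd and 2 best Even windows. Of the 11 best Even windows with the 8 bases, only those of C19orf47 and YME1L1 were in peaks that overlapped no Odd peak. By overlap, 8 of the 12 Odd peaks shared with best Even held the 8 bases, 13 of the 26 shared with a lower-ranked Even peak and 11 of the 88 without an Even peak. For the longer stretches, the first was in 5, 10 and 7 of these peaks and the second in 7, 8 and 7, against 0.645% and 0.510% of tiled windows. The bases thus lay more frequently in Odd peaks with an Even partner than in those without, whichever stretch was used, and the share was highest with a best Even partner for each, by a margin that varied. Of the 289 Odd CDS peaks 50 held the 8 bases (17.3%, 13.4 to 22.1). CFLAR, a regulator of death receptor signalling named here after its values were seen, had them 13 bases from the summit, with a fold enrichment of 29.4 with Odd and 9.09 with Even.

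Alu elements are primate repeats derived from 7SL RNA, and stretches that align over at least 50 bases to 7SL RNA or to the Alu part of BC200 RNA were called Alu-like. Within 250 bases of the summit, 11 Odd 3′ UTR peaks (8.73%, 4.94 to 14.96) and 2 best Even peaks (2.20%, 0.605 to 7.66), in PECR and YME1L1, held one. Tiled windows of all 3′ UTRs were at 12.6%, and windows of the same 3′ UTRs outside peaks at 16.03% (13.4 to 19.1) for Odd and 22.0% (17.6 to 27.2) for best Even. In 10 of the 11 Odd peaks the stretch ran in the sense orientation, including PECR, MAU2 and FAM210B, and in TNPO1 it was antisense only. By orientation, sense stretches were in 7.94% of Odd windows and 8.41% of those outside peaks, and antisense ones in 0.794% and 7.94%. Of the 11, 7 also held a run of at least 10 bases identical to SNHG5, and in 4 the longest run covered position 302. The SNHG5 transcript of the study held no Alu-like stretch, whereas 36 of 89 annotated SNHG5 transcripts held one.

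Whole 3′ UTRs gave another picture, and those with peaks were also longer than the median 3′ UTR, as given above. An Alu-like stretch lay somewhere in 58 of 125 3′ UTRs with an Odd peak (46.4%, 37.9 to 55.1) and in 28 of 91 with a best Even peak (30.8%, 22.2 to 40.9), against 20.3% of all canonical 3′ UTRs. Both orientations, the arrangement that can fold into a long duplex, occurred in 23 (18.4%, 12.6 to 26.1) and 9 (9.89%, 5.29 to 17.7), against 4.95%. The 3′ UTRs with peaks thus had higher shares than all 3′ UTRs, while around the summits the share was below that of the rest of the same 3′ UTRs, in Odd for antisense stretches but hardly for sense ones. These shares were not adjusted for length.

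The GC content within 100 bases of the summit had a median of 41.3% in Odd (39.8 to 43.8) and 45.3% in best Even (41.8 to 50.7), against 40.3% and 38.6% outside the peaks of the same 3′ UTRs. The predicted folding energy of these 201 bases had a median of −45.7 kcal/mol in Odd (−50.6 to −43.2) and −52.0 in best Even (−61.1 to −48.3), against −44.0 and −43.7 outside. Summits of best Even were thus richer in GC and predicted to fold more stably than the pooled windows outside peaks. The Odd values lay close to those of their outside windows. Summits and outside windows were not paired by gene, so a different mix of 3′ UTRs could also enter the comparison. GC content and folding energy move together, and the part of either was not tested.

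Known 3′ UTR motifs were found at shares near those of all 3′ UTRs. AATAAA, the poly(A) signal, was found on the sense strand in 34.1% of Odd and 30.8% of best Even windows, against 31.2% of tiled 3′ UTR windows. ATTTA, the core of AU-rich elements, was found in 53.2% and 51.6%, against 58.1%. TGTANATA, the Pumilio motif, was found in 7.14% and 7.69%, against 9.07%. Each of the 6 shares had an interval that held the share of all 3′ UTRs. On the other strand the tiled windows were at 39.1%, 56.8% and 6.45%, and the interval missed that share only for ATTTA in best Even (46.2%, 36.3 to 56.3).

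Genes tied to STAU1-mediated decay were looked up by name. Of all 19057 genes with a canonical 3′ UTR, 0.656% had an Odd 3′ UTR peak, 0.472% a best Even one and 3.68% one in the whole Even list, so lists of this size hold few or none at those shares. Of 10 known STAU1 targets, among them ARF1, none had an Odd or best Even 3′ UTR peak. In the whole Even list only MTAP, an enzyme of methionine salvage, had any, 2 weak ones with pileups of 14 and 4. ARF1 had 1 Even peak, with its summit in CDS and a fold enrichment of 2.61. Of 27 factors of STAU1-mediated and general mRNA decay, none had an Odd or best Even 3′ UTR peak, and UPF2, DCP1A and CNOT7 had 1 each in the whole Even list, with fold enrichments of 2.64, 4.37 and 1.87. From counts this small nothing is read about either list.

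Of 22 genes of STAT3 signalling and apoptosis, 2 had a best Even 3′ UTR peak and 0 an Odd one, against 0.472% and 0.656% of all genes. The whole Even list added no other gene, and from counts this small nothing is read. The 2 genes were BBC3, which encodes the proapoptotic protein PUMA (pileup 401, fold enrichment 28.7), and BIRC5, which encodes survivin (206 and 5.02). Both held a run identical to SNHG5 at a recurring place of best Even, 10 bases at 44 to 53 in BBC3 and 12 bases at 199 to 210 in BIRC5. These places were covered in 17 and 11 of all 91 best Even 3′ UTR windows.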

How the data were processed

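Per the study's methods and the submitters' processing notes, the authors trimmed reads with cutadapt, aligned them with STAR to hg19 and called peaks with MACS 2.0.9 at a p-value cutoff of 0.001. The deposited lists give the pileup at the summit (a signal in fragments), the fold enrichment over the control (a ratio), −log10 p, and the length and summit position in bp. The q columns were not used. The Odd libraries were pooled by the authors and filtered with IDR, and the Even list is from 1 library.

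Summits were placed on GENCODE release 44 lifted to GRCh37 (python 3.11.15, pandas 2.3.3, pysam 0.24.0). Windows reached 250 bases to each side of the summit for matches and motifs and 100 for GC and folding (RNAfold 2.7.2). Alu-like stretches were found with blastn 2.17.0 against 7SL and BC200 RNA, since no repeat annotation was used here. Shares have Wilson intervals and medians exact binomial intervals, at 95%. Matching was tested on simulated data, with 200 of 200 planted stretches found. Without replicates no test was made. Named were the genes the study followed, Odd 3′ UTR peaks overlapped by best Even, the 10 with the smallest p per list, and genes with 2 or more Odd or 3 or more Even 3′ UTR peaks. Alternatives changed the placement, transcript, overlap, Even ranking, window and match length. The members and lists were chosen with earlier results of these data known. Some results that this rule names are not reported here.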

Additional observations from a re-analysis of the deposited data

How the results depend on the processing

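Of 45 alternatives, 35 kept a share or median inside its own interval or a count within 1.5 times, and 10 did not. Among the 35, the Odd Alu-like share fell from 8.73% to 5.56% with alignments of 100 bases and also with windows of 100 bases to each side. With the whole Even list, 38 in place of 12 Odd 3′ UTR peaks had an Even partner, 45 in place of 14 genes had a 3′ UTR peak in both lists, and the Even median pileup and fold enrichment were 24 and 5.73 in place of 154 and 16.5. Ranking Even by fold enrichment left 4 shared peaks. Requiring no base in CDS left 55 in place of 91 best Even 3′ UTR peaks. For the share with a run identical to SNHG5, lengths chosen after seeing the data gave 35.7% (Odd) and 42.9% (best Even) at 11 bases and 18.3% and 24.2% at 12 bases, in place of 55.6% and 67.0% at 10. The causes were not tested. No paired analysis was possible because each list gives 1 pooled or single-library value for a peak, and single replicates could not be omitted for the same reason. The Even library had fewer tags than the pooled Odd libraries, which limits the weak peaks.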

Other observations

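Zinc finger genes with the prefix ZNF made up 3 of 125 genes with an Odd 3′ UTR peak (2.40%), 1 of 91 with a best Even peak (1.10%) and 2.65% of all genes with a canonical 3′ UTR. Solute carriers with the prefix SLC followed by a number made up 4 (3.20%) and 2 (2.20%), against 1.95%. SLCO4A1, which had a best Even peak, was not counted among them. Of 901 3′ UTR peaks in both lists, 16 had at least 50% of their 48-base words elsewhere in the genome, among them CLN8 and TCAF1 in Odd and the 3 NOMO genes in best Even.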
